A study of Mus musculus with 8 samples.

Results

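The immediate early genes described here are Fos, Fosb, Fosl2, Jun, Junb, Jund, Egr1, Nr4a1, Ier2 and Btg2, 10 of the 43472 gene symbols listed for the neural retina of 3 weeks-old Mfp2-/- and control mice. They were chosen by symbol, as transcripts that cells switch on within minutes of a stimulus without first making new protein. All 10 were listed and all 10 had enough counts to be tested. RNA was taken from the neural retinas of 4 Mfp2-/- mice and 4 control mice on the C57BL/6J background, all on postnatal day 21, and both retinas of a mouse were pooled into 1 library, so that each replicate was a mouse. Mfp2-/- mice lack multifunctional protein 2, an enzyme of peroxisomal β-oxidation, in every cell of the body, so that effects arising outside the retina cannot be told apart from those arising in it. The controls comprised 3 Mfp2+/+ mice and 1 Mfp2+/- mouse, which was control replicate 2. According to the methods of the study, the mice were anaesthetised and killed in the afternoon. The hour of death of each mouse was not given in the sources used here, and its part in the level of genes that respond within minutes was not tested.

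Immediate early genes encode mostly transcription factors and short-lived regulators. Their promoters are held ready for serum response factor, CREB and related factors, which are activated by MAP kinases and by calcium, and their transcripts are usually destroyed quickly. Fos and Jun proteins pair into the dimers called AP-1, in which a Jun protein can pair with itself or with a Fos protein, whereas Fos proteins need a Jun partner. In the retina these genes are known to respond to light, to synaptic activity and to injury, in neurons and in Müller glia.

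In the Mfp2-/- retinas, 5 of the 10 genes were higher than in control, and none was lower. The genes that rose were Fosb, Junb, Fosl2, Nr4a1 and Jund, by 0.53 to 1.76 on the log2 scale, whereas Fos, Jun, Egr1, Ier2 and Btg2 did not pass the test. A gene was called when its adjusted p in edgeR's quasi-likelihood test was below 0.05, after Benjamini-Hochberg correction over the 12516 genes tested. By this rule 13.8% of all genes tested were higher in Mfp2-/- retinas and 13.2% were lower, which made 27.0% in either direction. For 4 of the 10 genes (Fosb, Fosl2, Junb and Nr4a1) the lowest Mfp2-/- library lay above the highest control library, as for 15.1% of all genes tested, and for none did the highest Mfp2-/- library lie below the lowest control library, as for 15.8%. The count fell to 2 of 10 without control replicate 2 or without control replicate 4, where 9.38% and 10.4% of all genes tested were higher and 19.3% and 20.2% were called in either direction, and to 3 of 10 without Mfp2-/- replicate 3, where 9.41% were higher and 19.5% were called. The median log2 fold change of the 10 genes was 0.49, beside -0.0039 over all genes tested. Fewer cells of a type and less RNA per cell cannot be told apart from RNA of whole retinas alone, and this holds for every level given here. For photoreceptors, whose markers are given below, the study also counted nuclei in tissue sections. It reported that their number was normal in Mfp2-/- mice at the age used here, although more of them were in apoptosis.

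Promoter sequences are shown so that genes that rose can be compared letter by letter with Fos, which did not pass the test. The sequences are those of RefSeq on GRCm38.p6, from 250 bases before to 50 bases after the annotated start, and 8 of the 10 genes matched an entry. They are printed for Fos, Fosb, Fosl2, Junb and Nr4a1. Capitals mark the matches found on either strand to the letters TGACG, to GCGTGGGCG or GCGGGGGCG, and to TATAAA.
Fos (chr12:85473640-85473939, plus strand): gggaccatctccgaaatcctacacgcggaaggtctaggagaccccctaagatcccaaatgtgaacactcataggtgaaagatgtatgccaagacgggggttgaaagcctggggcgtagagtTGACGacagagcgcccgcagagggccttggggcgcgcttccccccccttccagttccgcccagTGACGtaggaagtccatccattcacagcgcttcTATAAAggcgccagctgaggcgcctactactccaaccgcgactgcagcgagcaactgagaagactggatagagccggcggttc
Fosb (chr7:19309996-19310295, minus strand): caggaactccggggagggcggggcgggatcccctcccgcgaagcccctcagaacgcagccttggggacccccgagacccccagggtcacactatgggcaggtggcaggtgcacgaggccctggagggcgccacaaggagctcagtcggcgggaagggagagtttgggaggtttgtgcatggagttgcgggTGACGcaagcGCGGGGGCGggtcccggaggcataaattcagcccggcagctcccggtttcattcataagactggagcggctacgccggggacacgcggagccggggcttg
Fosl2 (chr5:32136222-32136521, plus strand): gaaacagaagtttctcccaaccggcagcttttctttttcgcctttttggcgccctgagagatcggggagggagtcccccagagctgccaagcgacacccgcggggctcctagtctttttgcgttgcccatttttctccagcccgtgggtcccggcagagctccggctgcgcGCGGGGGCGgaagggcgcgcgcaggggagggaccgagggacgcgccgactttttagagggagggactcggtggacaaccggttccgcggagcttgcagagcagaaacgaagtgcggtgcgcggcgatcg
Junb (chr8:84978699-84978998, minus strand): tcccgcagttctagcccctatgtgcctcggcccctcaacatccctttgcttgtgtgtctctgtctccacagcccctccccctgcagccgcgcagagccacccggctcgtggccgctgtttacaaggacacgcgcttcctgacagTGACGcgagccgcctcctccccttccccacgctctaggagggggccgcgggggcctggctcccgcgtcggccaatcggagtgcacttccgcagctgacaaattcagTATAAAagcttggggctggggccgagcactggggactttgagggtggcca
Nr4a1 (chr15:101266596-101266895, plus strand): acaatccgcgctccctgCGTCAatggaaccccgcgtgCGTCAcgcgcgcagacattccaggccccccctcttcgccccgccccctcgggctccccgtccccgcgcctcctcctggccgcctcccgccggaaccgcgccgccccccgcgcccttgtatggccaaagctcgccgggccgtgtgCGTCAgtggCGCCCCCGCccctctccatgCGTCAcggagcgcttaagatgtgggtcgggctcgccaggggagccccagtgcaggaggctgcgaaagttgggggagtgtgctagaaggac

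TGACG is the first part of the element bound by CREB, and it was searched for after the sequences had been seen. It stood in 5 of the 8 promoters, beside 20.8% of the 32851 mouse promoters of the same length. Nr4a1 held 4 matches, Fos 2, Btg2 2, and Fosb and Junb 1 each, whereas Fosl2, Jun and Jund held none. In Nr4a1 all 4 lay on the other strand, where they read CGTCA. The whole CREB element, TGACGTCA, was found in Btg2 alone, where it overlaps both matches to TGACG, beside 1.79% of all promoters. An EGR1-type site, GCGTGGGCG or GCGGGGGCG, stood in Fosb, Fosl2 and Nr4a1, which makes 3 of 8 beside 3.47% of all promoters. TATAAA was found in Fos and Junb, beside 13.6% of all promoters. It stood at -33 to -28 from the annotated start in Fos, but at 1 to 6, after that start, in Junb. The GENCODE start of Junb lies 30 bases after the RefSeq start. No match to the AP-1 letters TGACTCA or TGAGTCA, to the STAT letters TTCNNNGAA or to the CArG box of serum response factor was found in the 8 windows, beside 5.2%, 8.3% and 1.63% of all promoters. A match is only a match of letters. Bases outside these windows, and the promoters of Egr1 and Ier2, were not searched. TGACG stood in 3 of the 5 genes that rose, namely Fosb, Junb and Nr4a1, and also in Fos and Btg2, which did not pass the test. For Fosl2 and Nr4a1 the gene annotation of GENCODE starts before the RefSeq start, so that these windows show 1 of several starts. The RefSeq start of Jund lies 1210 bases before the GENCODE gene, and its window is not printed.

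The Jun family supplies the partner that every AP-1 dimer needs. Values per library are CPM, the counts scaled to library size with edgeR's TMM factors. The libraries read the 3′ end of each transcript, and their values were therefore compared between genes without a correction for length. Junb encodes a Jun protein that is induced early after a stimulus and often restrains Jun. Its gene lies on chromosome 8 from 84974484 to 84978718 (GRCm38, minus strand). Junb was at 31.1, 45.2, 25.5 and 26.1 CPM in Mfp2-/- replicates 1 to 4, against 12.4, 15.8, 12.6 and 16.4 CPM in control replicates 1 to 4. The groups were apart, with a gap of several CPM between the lowest Mfp2-/- library and the highest control library. The mean was 32.01 ± 9.16 CPM in Mfp2-/- and 14.3 ± 2.11 CPM in control retinas (SD, n = 4 each), a log2 fold change of 1.15 (standard error 0.22, 95% interval 0.67 to 1.64) with an adjusted p of 0.00326 in edgeR. Of the exon bases of Junb, 7.52% are shared with Prdx2 on the other strand, which had 5794 counts over the 8 libraries beside 479 for Junb. The shared bases are 3′ exon bases of Junb, and the libraries read 3′ ends. The share of Junb reads that they hold may therefore exceed their share of bases. Whether the counting used strand was not stated, so that reads in the shared bases cannot be told apart. Prdx2 itself had a log2 fold change of 0.22 with an adjusted p of 0.237 in edgeR. Every Mfp2-/- library nevertheless lay above every control library for Prdx2, with means of 293.6 CPM in Mfp2-/- and 252.1 CPM in control retinas. The part of Prdx2 reads in the Junb counts was not tested.

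Jund encodes the Jun protein that is present in most resting cells. It is a gene of 1 exon on chromosome 8 from 70698949 to 70700616 (plus strand). Jund was at 66.5, 97.6, 91.1 and 75.0 CPM in Mfp2-/- replicates 1 to 4, against 62.6, 43.9, 67.1 and 53.6 CPM in control replicates 1 to 4. The groups touched, since Mfp2-/- replicate 1 lay just under control replicate 3, and the other 3 Mfp2-/- libraries lay above all controls. The log2 fold change was 0.53 (standard error 0.17, 95% interval 0.15 to 0.92) with an adjusted p of 0.0432 in edgeR, the closest to the threshold of the 5 genes that rose. The call was lost without any 1 of 5 libraries (Mfp2-/- replicate 2 or 3, or control replicate 1, 2 or 4), with adjusted p up to 0.123 in edgeR. An antisense gene, Gm11175, covers 52.6% of the exon bases of Jund and was listed at 0 counts in all libraries.

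Jun, the founding member of the family (chromosome 4, 95049034 to 95052222, minus strand), is activated through phosphorylation by JNK as well as through its transcript. Jun was at 61.2, 91.5, 72.3 and 65.8 CPM in Mfp2-/- replicates 1 to 4, against 61.5, 49.8, 65.2 and 54.0 CPM in control replicates 1 to 4. Mfp2-/- replicate 1 lay among the controls and the other 3 Mfp2-/- libraries lay above them. The log2 fold change of 0.33 (95% interval -0.02 to 0.68) did not pass edgeR's test (adjusted p = 0.144), and the interval still included an increase as large as the estimate for Jund.

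**Figure D1:**
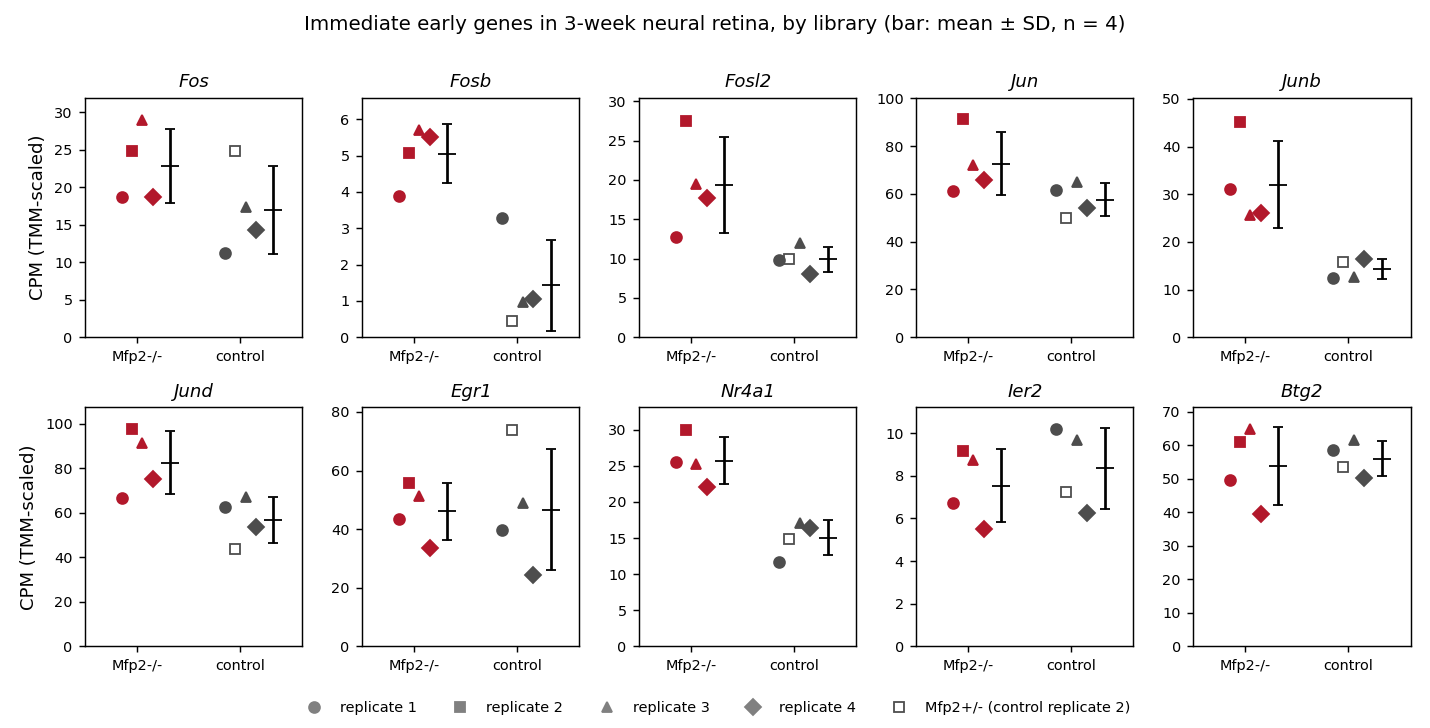
Level of each of the 10 immediate early genes (CPM, TMM-scaled, from 0) in the 4 Mfp2-/- libraries (red, left) and the 4 control libraries (grey, right). Symbols give the replicate number, the open square is the Mfp2+/- control, and bars are the mean ± SD (n = 4). The groups are apart for Fosb, Fosl2, Junb and Nr4a1, and Mfp2-/- replicate 2 or 3 is the highest Mfp2-/- library in every panel.

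Within the Fos family, Fosb and Fosl2 rose, whereas Fos did not pass the test. Fosb (chromosome 7, 19302696 to 19310051, minus strand) encodes FosB and, by splicing, the long-lived ΔFosB, which the counts do not separate. Fosb had 11, 10, 17 and 15 counts in Mfp2-/- replicates 1 to 4, against 9, 1, 3 and 3 counts in control replicates 1 to 4. Scaled to library size, it was at 3.89, 5.08, 5.71 and 5.52 CPM in Mfp2-/- retinas, against 3.28, 0.452, 0.968 and 1.05 CPM in control retinas. Control replicate 1 stood above the other controls and came close to the lowest Mfp2-/- library, and the groups did not overlap. The log2 fold change of 1.76 was the largest of the 10 genes and the least precise (standard error 0.47, 95% interval 0.72 to 2.80, adjusted p = 0.0186 in edgeR), as it rested on 53 counts in Mfp2-/- and 16 in control libraries. The call was lost without Mfp2-/- replicate 3 or without control replicate 2, 3 or 4, with adjusted p of 0.0545 to 0.0605 in edgeR.

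Fosl2, which encodes the Fos protein Fra-2 (chromosome 5, 32135801 to 32157842, plus strand), was at 12.7, 27.4, 19.5 and 17.7 CPM in Mfp2-/- replicates 1 to 4, against 9.83, 9.95, 11.9 and 8.01 CPM in control replicates 1 to 4. The lowest Mfp2-/- library was close to the highest control library and still above it. This gave a log2 fold change of 0.94 (standard error 0.25, 95% interval 0.38 to 1.503) with an adjusted p of 0.0199 in edgeR. It missed the threshold without control replicate 2 or 4, at an adjusted p of 0.0513 and 0.0595 in edgeR.

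Fos, whose transcript is the textbook marker of recent neuronal activity (chromosome 12, 85473890 to 85477273, plus strand), was at 18.8, 24.9, 28.9 and 18.8 CPM in Mfp2-/- replicates 1 to 4, against 11.3, 24.9, 17.4 and 14.3 CPM in control replicates 1 to 4. The Mfp2+/- control had as much Fos as Mfp2-/- replicate 2, and the other 3 controls lay below all Mfp2-/- libraries. Its log2 fold change of 0.44 (standard error 0.26, 95% interval -0.13 to 1.00) did not pass edgeR's test (adjusted p = 0.227). It was 0.66 without control replicate 2, which still did not pass (adjusted p = 0.0885 in edgeR).

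Nr4a1 and Egr1 encode immediate early transcription factors outside AP-1, of which Nr4a1 rose and Egr1 did not pass the test. Nr4a1 (Nur77, chromosome 15, 101254269 to 101274795, plus strand) is an orphan nuclear receptor that is induced by calcium and cyclic AMP. It was at 25.5, 30.0, 25.2 and 22.1 CPM in Mfp2-/- replicates 1 to 4, against 11.6, 14.9, 17.1 and 16.4 CPM in control replicates 1 to 4. The groups were apart and both were narrow. Nr4a1 rose by 0.77 on the log2 scale (standard error 0.18, 95% interval 0.37 to 1.16), with an adjusted p of 0.0102 in edgeR. Nr4a1 and Junb passed in each alternative processing and in each fit with 1 library left out, with adjusted p of at most 0.0318 for Nr4a1 and 0.0135 for Junb when 1 library was left out.

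Egr1 encodes the zinc finger factor EGR1 (chromosome 18, 34859823 to 34864984, plus strand), which is induced by MAP kinase signalling and by synaptic activity. It was at 43.5, 55.9, 51.4 and 33.5 CPM in Mfp2-/- replicates 1 to 4, against 39.7, 73.7, 49.0 and 24.4 CPM in control replicates 1 to 4. The highest and the lowest library of all 8 were both controls. The log2 fold change was -0.015 (standard error 0.29, 95% interval -0.66 to 0.63, adjusted p = 0.975 in edgeR), with one of the widest intervals of the 10 genes. Without control replicate 2 the log2 fold change was 0.28, and its sign also turned under other settings.

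Ier2 and Btg2 did not pass the test. Ier2 encodes a small nuclear regulator and is a gene of 1 exon on chromosome 8 (84661331 to 84662852, minus strand). It was at 6.72, 9.15, 8.74 and 5.52 CPM in Mfp2-/- replicates 1 to 4, against 10.2, 7.24, 9.68 and 6.27 CPM in control replicates 1 to 4. Between the groups this was a log2 fold change of -0.16 (95% interval -0.76 to 0.44, adjusted p = 0.691 in edgeR). Btg2, an antiproliferative gene whose protein promotes the removal of poly(A) tails, lies on chromosome 1 (134075170 to 134079120, minus strand). It was at 49.5, 61.0, 64.9 and 39.3 CPM in Mfp2-/- replicates 1 to 4, against 58.6, 53.4, 61.6 and 50.2 CPM in control replicates 1 to 4. The log2 fold change was -0.062 (95% interval -0.43 to 0.31, adjusted p = 0.814 in edgeR), and the highest and lowest library of all 8 were both Mfp2-/-. The intervals of both genes lay below the estimates of the 5 genes that rose.

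**Figure D2:**
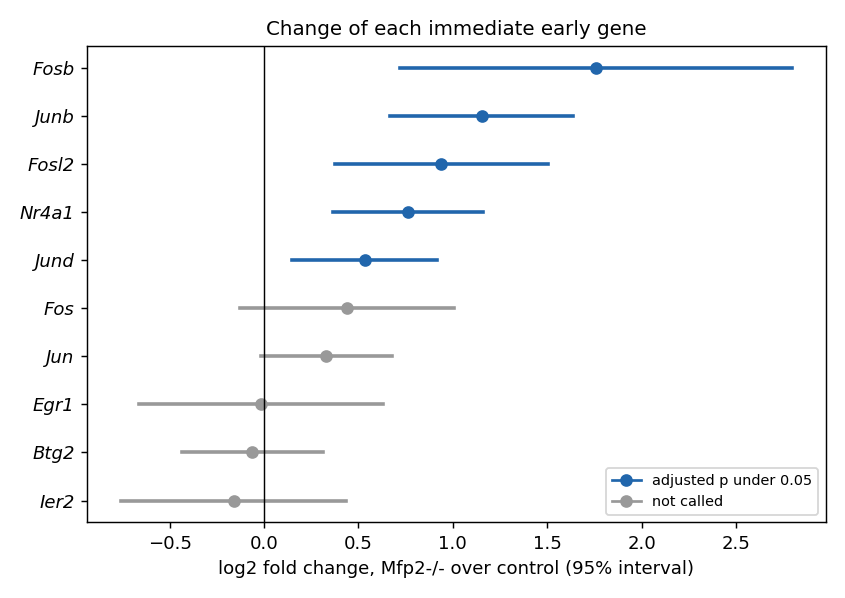
Log2 fold change of each gene, Mfp2-/- over control, with its 95% interval from edgeR (n = 4 mice each). Blue genes had an adjusted p under 0.05, from Jund at 0.53 to Fosb at 1.76, and the intervals of the 5 grey genes include 0.

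In order of level, the genes of the Mfp2-/- retinas were Jund (82.6 ± 14.3 CPM), Jun (72.7 ± 13.3 CPM), Btg2 (53.7 ± 11.6 CPM), Egr1 (46.1 ± 9.84 CPM), Junb (32.01 ± 9.16 CPM), Nr4a1 (25.7 ± 3.26 CPM), Fos (22.8 ± 4.98 CPM), Fosl2 (19.3 ± 6.11 CPM), Ier2 (7.53 ± 1.71 CPM) and Fosb (5.05 ± 0.816 CPM; SD, n = 4). Of these neighbours, only Fosl2 and Ier2 did not overlap. In the control retinas the order was Jun (57.6 ± 6.99 CPM), Jund (56.8 ± 10.3 CPM), Btg2 (55.9 ± 5.13 CPM), Egr1 (46.7 ± 20.7 CPM), Fos (17.0 ± 5.84 CPM), Nr4a1 (15.01 ± 2.42 CPM), Junb (14.3 ± 2.11 CPM), Fosl2 (9.93 ± 1.60 CPM), Ier2 (8.34 ± 1.89 CPM) and Fosb (1.44 ± 1.25 CPM; SD, n = 4). There the neighbours Junb and Fosl2 and the neighbours Ier2 and Fosb did not overlap. Junb stood at rank 5 of 10 in Mfp2-/- retinas against rank 7 in control retinas, and Fos at rank 7 in Mfp2-/- retinas against rank 5 in control retinas. Every other gene kept its rank within 1 place. All of these were modest levels, and the 10 genes together took 0.0321% to 0.0465% of the counts in genes in Mfp2-/- libraries, against 0.0235% to 0.0300% in control libraries.

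The make-up of the 2 AP-1 families was compared as shares of their counts, which do not depend on scaling. Fos made up 48.6 ± 5.32% of the Fos, Fosb and Fosl2 counts in Mfp2-/- and 58.9 ± 10.03% in control retinas (SD, n = 4 each), a difference of -10.2 percentage points that did not pass an exact two-sided permutation test (p = 0.114, adjusted p = 0.343 over 3 shares). Jund made up 44.2 ± 3.09% of the Jun family counts in Mfp2-/- and 43.9 ± 2.87% in control retinas (exact permutation p = 0.857, adjusted p = 0.857). The Fos family made up 20.1 ± 1.68% of the counts of both families in Mfp2-/- and 18.2 ± 4.23% in control retinas (exact permutation p = 0.4, adjusted p = 0.6). The smallest p that 4 against 4 libraries allow in this test is 0.0286. The share of Jun itself was singled out after its values were seen and carries no test. It was 38.5%, 39.0%, 38.3% and 39.4% in Mfp2-/- replicates 1 to 4, against 45.1%, 45.5%, 45.0% and 43.5% in control replicates 1 to 4. The Mfp2-/- values lay within about 1 point of each other and below every control value, although the 95% interval of a single library (Wilson, counting error only) was wider, as in Mfp2-/- replicate 4 with 35.0% to 44.0% and control replicate 4 with 38.5% to 48.7%. Junb took 13.5% to 19.6% of the Jun family counts in Mfp2-/- and 8.69% to 14.5% in control libraries.

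**Figure D3:**
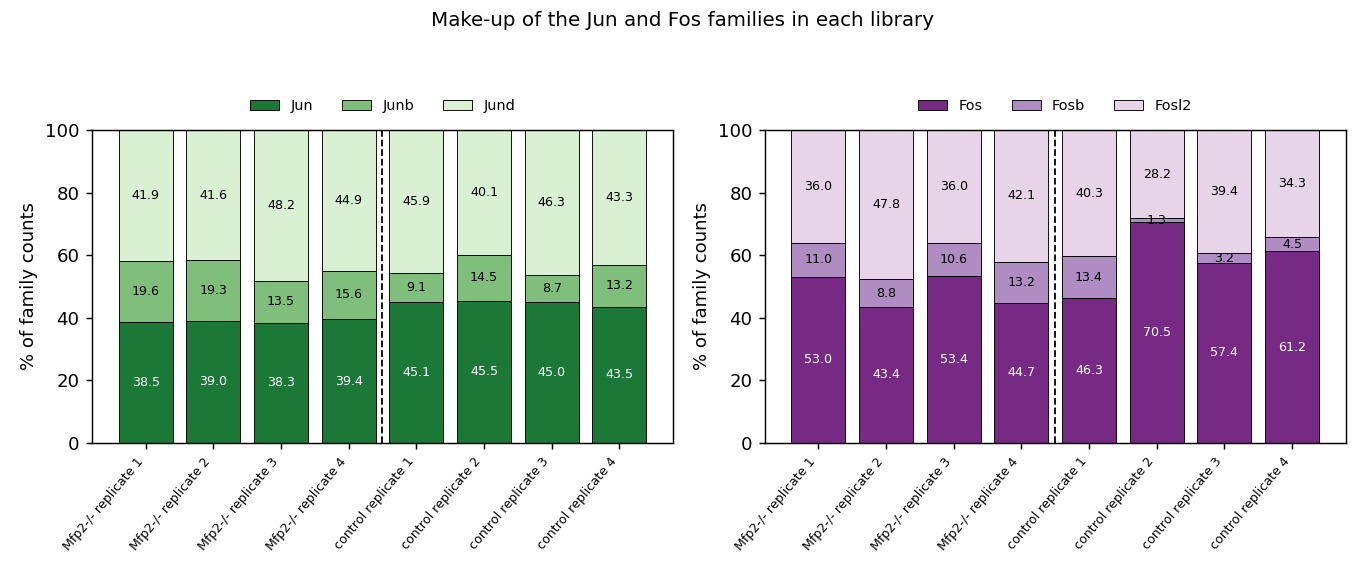
Shares of each gene in the counts of its family (left, Jun family; right, Fos family; % of family counts), 1 bar per library, with the Mfp2-/- libraries left of the dashed line and the control libraries right of it. Jun takes 38.3% to 39.4% in Mfp2-/- libraries and 43.5% to 45.5% in control libraries, while the Fos family varies between libraries of a group, with Fos at 46.3% to 70.5% among the controls.

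The Mfp2-/- mice were not alike. Mfp2-/- replicate 2 had the highest Mfp2-/- value of 7 genes and Mfp2-/- replicate 3 that of the other 3, whereas replicates 1 and 4 had none. The summed level of the 10 genes was 319.5, 447.7, 393.3 and 309.3 CPM in Mfp2-/- replicates 1 to 4, against 281.0, 294.0, 312.5 and 244.5 CPM in control replicates 1 to 4. Mfp2-/- replicate 4 lay below control replicate 3, so that the sums overlapped. Mfp2-/- replicates 2 and 3 also stood apart over all genes. On the first principal component, which held 61.3% of the variance, they lay at -84.1 and -55.1, with Mfp2-/- replicates 1 and 4 at -20.4 and -21.8 and the controls at 36.0 to 49.2. Of the reads counted within, outside or ambiguously between genes, 20.9% and 27.6% fell outside annotated genes in the same 2 libraries. The share was 45.2% and 45.6% in Mfp2-/- replicates 1 and 4 and 36.3% to 46.2% in the controls. The part of this difference in the levels of these genes was not tested. Without both of these libraries 2 of the 10 genes were called, namely Junb and Nr4a1. Of all 13044 genes tested in that fit 13.3% were higher and 26% were called in either direction, so that the count of 2 was close to the share of all genes. The log2 fold changes of the other 3 were then 1.65 for Fosb (adjusted p = 0.0570), 0.60 for Fosl2 (adjusted p = 0.119) and 0.30 for Jund (adjusted p = 0.206 in edgeR).

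Among the controls, Egr1, Fos, Jund and Fosb varied more than most genes of their level. The SD of log2 CPM was 0.32 for Egr1 in Mfp2-/- and 0.65 in control retinas. Among the 500 genes closest in level, the median SD was 0.25 in Mfp2-/- and 0.18 in control retinas, which put Egr1 at percentile 63.4 in Mfp2-/- and 99.2 in control retinas. Fos had an SD of 0.30 in Mfp2-/- and 0.46 in control retinas, at percentile 49.6 in Mfp2-/- and 94.2 in control retinas. Jund was at percentile 50.4 in Mfp2-/- and 83.4 in control retinas, and Fosb at percentile 7 in Mfp2-/- and 80.6 in control retinas. The Mfp2+/- control was the highest control for Egr1 and Fos and the lowest for Jun, Jund and Fosb. It was no more often at an end than the Mfp2+/+ controls. Control replicate 1 was also highest for 2 genes and lowest for 3, control replicate 3 was highest for 5, and control replicate 4 was highest for 1 and lowest for 4. Among the Mfp2-/- libraries Nr4a1 was at percentile 18.8.

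The genes whose pattern over the 8 libraries was most like that of Fos, Jun and Egr1 were sought by the smallest root-mean-square difference of log2 CPM relative to the control mean, among 9340 genes of at least 10 CPM. The 10 immediate early genes themselves and genes without an official symbol were left out of this search. Closest to Jun were Eif6 (0.0399), Bag5 (0.0406) and Pja1 (0.0498). For Fos the nearest genes were Fbxw4 (0.150), Adam9 (0.152) and Cckbr (0.158). Egr1 was the least matched, with Msrb1 (0.233), Ankrd13b (0.258) and Bckdk (0.263).

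Further genes of the same kind and of the pathway around them were counted by lists, to be read beside the 13.8% of all genes tested that rose and the 13.2% that fell. Of 20 other immediate early transcription factors 11 were tested, of which 7 rose and none fell, with a median log2 fold change of 0.88. Cebpd and Cebpb, factors of the acute phase response, rose by 3.58 each (adjusted p = 9.57e-07 and 4.49e-05 in edgeR). Cebpd was at 83.2, 129.6, 96.1 and 111.1 CPM in Mfp2-/- replicates 1 to 4, against 12.4, 7.69, 8.06 and 6.62 CPM in control replicates 1 to 4. Atf3, a stress-induced partner of Jun proteins, had 33, 25, 33 and 26 counts in Mfp2-/- replicates 1 to 4, against 8, 2, 8 and 8 counts in control replicates 1 to 4, and rose by 2.23 (adjusted p = 0.000488). Klf6 rose by 1.06 (adjusted p = 0.000381). These log2 fold changes were larger than those of most of the 10 genes, but differences between genes were not tested. Fosl1, Egr2, Egr3, Egr4, Nr4a3, Npas4, Maff, Myc and Csrnp1 had too few counts to be tested.

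Of 24 immediate early genes that encode effectors rather than transcription factors, 21 were tested, 6 rose and 2 fell. Ier3 was at 66.2, 91.5, 70.3 and 58.5 CPM in Mfp2-/- replicates 1 to 4, against 186.3, 178.2, 199.3 and 185.7 CPM in control replicates 1 to 4, a log2 fold change of -1.39 (adjusted p = 7.13e-05 in edgeR). Tob2, a relative of Btg2, changed by -1.47 (adjusted p = 0.000259), whereas Cyr61 rose by 1.70 (adjusted p = 0.00204) and Gadd45b by 1.56 (adjusted p = 0.00342).

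Among AP-1 partners and rivals 10 of 15 were tested, 4 rose and none fell, with Jdp2, which encodes a repressor that pairs with Jun proteins, at 1.16 (adjusted p = 0.00127), Maf at 0.81 (adjusted p = 0.00169) and Ddit3 at 0.86 (adjusted p = 0.00413 in edgeR) beside Atf3. All 30 genes of the MAP kinase, serum response factor and CREB inputs were tested, of which 5 rose and 3 fell, with a median of 9e-04. Of these, Rps6ka1 was at 1.03, Mapk10 at 0.47 and Rps6ka2 at -0.92 (adjusted p of 0.0135 to 0.0184 in edgeR). Mapk10 was not called without Mfp2-/- replicate 3 or control replicate 4 (adjusted p = 0.0501 and 0.0516 in edgeR), nor Rps6ka2 without control replicate 4 (adjusted p = 0.0612 in edgeR). Among feedback inhibitors 17 of 18 were tested, 4 rose and 2 fell. Dusp6, which removes phosphate from ERK, rose by 1.00 (adjusted p = 0.00175), Nab2, a corepressor of EGR factors, by 1.72 (adjusted p = 0.00334) and Spry1 by 1.41 (adjusted p = 0.00846), while Dusp14 was at -1.76 (adjusted p = 0.000543 in edgeR). A list around the decay of AU-rich transcripts such as Fos also held general factors of poly(A) removal, and Elavl1, which stabilises such transcripts. Of this list 16 of 17 were tested, 1 rose and 5 fell, with a median of -0.41. Every gene that fell was a Cnot or Pan gene of the general machinery. Cnot6, a deadenylase, was at -1.69 (adjusted p = 0.00228), Pan2 at -0.93 (adjusted p = 0.00628) and Cnot1 at -0.82 (adjusted p = 0.00680), and Zfp36l1 rose by 0.75 (adjusted p = 0.00103 in edgeR).

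Textbook targets of AP-1 and EGR factors were mostly higher, with 10 of the 12 tested of 20 listed up and none down, at a median of 1.82. Cd44 rose by 3.04 (adjusted p = 2.00e-06), Ccnd1 by 2.06 (adjusted p = 3.88e-05) and Lgals3 by 2.76 (adjusted p = 0.000279 in edgeR), and Timp1 had 53, 32, 24 and 36 counts in Mfp2-/- replicates 1 to 4, against 1, 1, 3 and 0 counts in control replicates 1 to 4. Nab2 is in this list too. Several of these genes are also expressed by glia and immune cells. The heat shock genes, another rapidly induced group, had 1 up and 3 down of 10. Hspa1a was at -2.09 (adjusted p = 4.93e-05), Hspa1b at -2.60 (adjusted p = 0.000589) and Hsp90aa1 at -1.40 (adjusted p = 0.0174), whereas Bag3 rose by 1.43 (adjusted p = 0.0105 in edgeR). The call of Hsp90aa1 was lost without Mfp2-/- replicate 3 or control replicate 1 (adjusted p = 0.0566 and 0.0515 in edgeR). Hspa1a and Hspa1b are near-identical copies, so that the split of reads between them is uncertain.

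**Figure D4:**
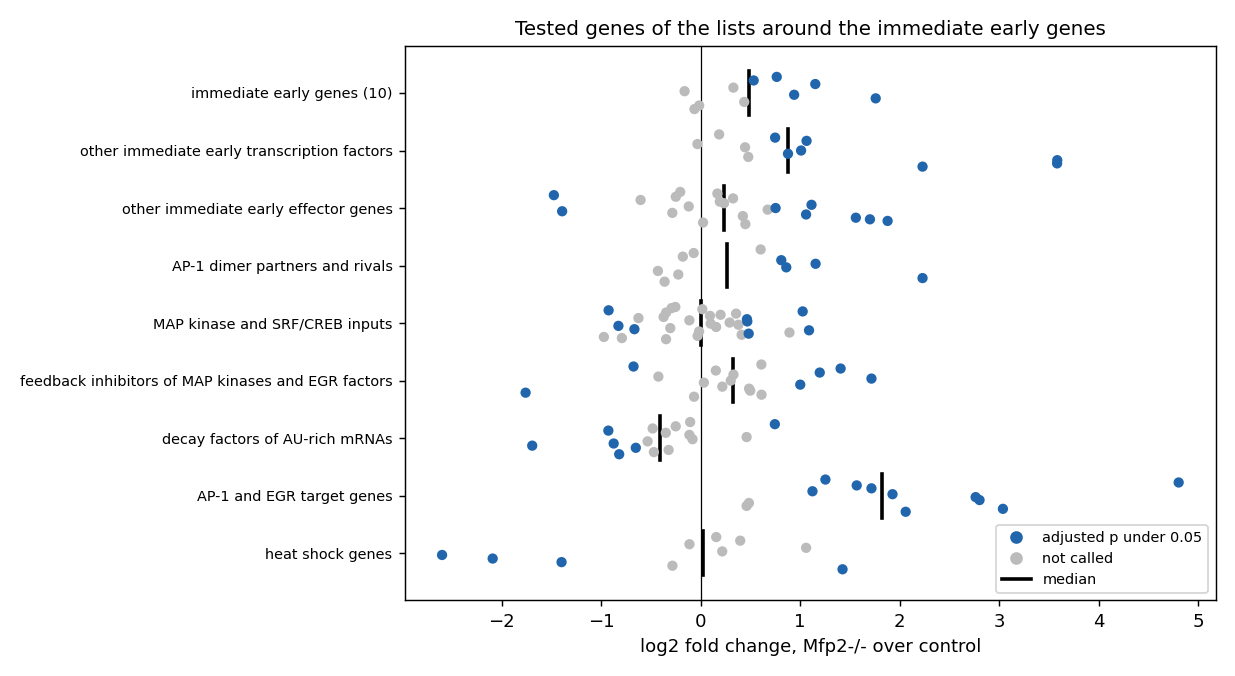
Log2 fold change, Mfp2-/- over control, of each tested gene of the 10 immediate early genes (top row) and of 8 lists around them, with genes of an adjusted p under 0.05 in blue and the median of each list as a bar. The medians run from -0.41 for the decay factors to 1.82 for the AP-1 and EGR targets, with 0.49 for the 10 genes.

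Markers of retinal cell types also differed between the groups. All 14 rod markers fell, with a summed level of 1617 to 2327 CPM in Mfp2-/- against 47880 to 58520 CPM in control libraries. All 11 of the 12 microglia markers that were tested rose, summing to 428 to 556 CPM in Mfp2-/- against 82.6 to 105 CPM in control libraries. Of 10 Müller glia markers 7 rose, and the list summed to 4796 to 6409 CPM in Mfp2-/- against 3802 to 4402 CPM in control libraries. Apoe alone had a mean of 1679 CPM in Mfp2-/- and 603 CPM in control retinas. The Müller glia markers Glul, Aqp4 and Rlbp1 did not pass, at log2 fold changes of -0.52, 0.13 and -0.011. Of the other lists, 2 of 9 cone markers rose and 6 fell, 8 of 10 bipolar, 4 of 8 ganglion cell and 1 of 8 amacrine markers rose, 2 of the 9 endothelial and pericyte markers tested rose, and none of the 9 pigment epithelium markers tested passed in edgeR. No marker was at 0 in all libraries. The 5 genes that rose are expressed in neurons, glia and immune cells alike, and the part of cell make-up in their levels was not tested. When the library factors were computed without the rod and cone markers, the same 5 genes were called. Hsd17b4, which encodes multifunctional protein 2, had 1, 0, 1 and 0 counts in Mfp2-/- replicates 1 to 4, against 47, 20, 78 and 37 counts in control replicates 1 to 4, and the counts do not show where these reads lie relative to the deleted part. The libraries held 1895485 to 2826553 counts in genes in Mfp2-/- and 2340974 to 3226187 in control mice.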

How the data were processed

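Neural retinas of 4 Mfp2-/- and 4 control mice were analysed. The authors deposited raw counts for each gene symbol, without normalization, from single-end reads of 3′ libraries. The submitters' processing notes name FastQC 0.11.7, HISAT2, SAMtools 1.5, HTSeq 2.7.14 and mm10. Neither the release of the annotation nor the strand setting is given in the sources used here. Rows that name no gene held 59.2% to 66.9% of the listed reads and were left out, and a table of the whole series was not used here. Reads were not collapsed by molecule, so that the Wilson intervals of shares cover counting error only, whereas those of log2 fold changes include the spread between mice.

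Counts were tested in R 4.3.3 with edgeR 4.0.16 (filterByExpr, TMM, quasi-likelihood test, 12516 genes, Benjamini-Hochberg adjustment). The authors used limma. Standard errors were derived from the F statistic. DESeq2 1.42.0, limma-voom 3.58.1, RLE, upper-quartile or no factors, TMM without rod and cone markers, other filters, the replicate number as a block and fits without single libraries were alternatives. Log2 CPM used a prior count of 2. Shares were tested in Python 3.11.15 with SciPy 1.17.1, and positions are those of GENCODE on GRCm38. The test was tried on simulated data, where it recovered 92.5% of 4-fold, 43.3% of 2-fold and 3.03% of 1.5-fold changes. Those data held 67, 67 and 66 changed genes, fewer than were called here. A gene that did not pass may therefore still have changed, even by 2-fold or more. The members, lists and alternatives were chosen with earlier results of these data known. Named genes were the 10 members, Hsd17b4, from each list the 4 or fewer tested genes of lowest adjusted p, and the 3 nearest profiles of Fos, Jun and Egr1. A gene taken by this rule is not reported here.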

Additional observations from a re-analysis of the deposited data

How the results depend on the processing

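Of the 10 genes, 5 were called under the RLE, upper-quartile and total-count scalings. The same number was called with TMM factors that left out rod and cone markers, with DESeq2 and with limma-voom. Of all genes tested, 26.9% to 29.7% were called in these settings, and 13.4% to 19.4% were higher. The number was 4 without the filter on low counts and with the replicate number as a block, where Jund was lost at a log2 fold change of 0.52 (adjusted p = 0.0566) and 0.53 (adjusted p = 0.0796). Of all genes tested, 15.8% were called without the filter and 22.7% with the block, and 7.69% and 10.8% were higher. The number of the 10 genes was also 4 with a minimum of 10 counts in every library, by which Fosb was not tested. There 28.1% of all genes tested were called and 14.8% were higher. With 1 library left out the number was 2 to 5, where 19.3% to 27.7% of all genes tested were called. Without both Mfp2-/- replicates 2 and 3 it was 2, where 26% of all genes tested were called. It was 2 without control replicate 2 and without control replicate 4, and 3 without Mfp2-/- replicate 3, where 19.3%, 20.2% and 19.5% of all genes tested were called. Junb and Nr4a1 were called in every one of these settings. Their log2 fold changes with 1 library left out were 0.95 to 1.26 and 0.65 to 0.85, those of Fosb 1.51 to 2.50, of Fosl2 0.74 to 1.12, of Jund 0.42 to 0.65, of Fos 0.28 to 0.66 and of Jun 0.20 to 0.43. Values that were not called turned in sign for Egr1 (0.11 both with total counts and with upper-quartile factors, 0.074 with limma-voom, 0.055 with the replicate block, and -0.22 to 0.28 with 1 library left out) and for Btg2 (0.067 with upper-quartile factors, 0.063 with total counts, and -0.17 to 0.082 with 1 library left out). The difference in the share of Jund in the Jun family was -1.07 to 1.13 points with 1 library left out. The causes were not tested. Upper-quartile factors and total counts moved the median of all genes tested to 0.12, and of the genes called 64.2% and 65.2% were then higher in Mfp2-/-, against 51.2% with TMM. Whether the replicate numbers pair the mice cannot be settled here. Same-numbered libraries correlated at 0.0798, -0.161, 0.251 and 0.211 in their deviations from the group means. The same-numbered control was the closest one for Mfp2-/- replicates 3 and 4 but not for Mfp2-/- replicates 1 and 2. The block changed no other call among the 10 genes. Depth limits Fosb most, where 1 count is worth 0.323 to 0.508 CPM. Of the other genes named, Mapk10 also lost its call with the replicate block and Rps6ka1 without both Mfp2-/- replicates 2 and 3.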
